A study of Mus musculus with 10 samples.

Results

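H3K27me3 at the genes of Wnt signalling was examined in long-term stem cells of blood formation (LT-HSCs). They were purified by flow cytometry from mouse fetal liver at E14.5 with the gate LSK CD48-CD150+. The genes were taken by symbol and comprised 19 Wnt ligands, 10 Frizzled receptors and 13 secreted modulators, with Dact1 and Dact2, which encode intracellular proteins and are therefore described apart. These 44 genes are part of 21938 protein-coding genes outside the mitochondrial genome. The 6 libraries were made by CUT&Tag, in which an antibody-bound Tn5 transposase cuts and tags the chromatin carrying the mark, here with antibody C36B11. The WT group held 3 libraries from wild-type embryos and the KO group 3 from embryos lacking IκBα, of the targeted Nfkbia tm1Bal line, obtained by crossing heterozygous mice, some of which also carried the Gfi1:tomato reporter. IκBα retains NF-κB in the cytoplasm, and the deletion is present in all cells of the KO embryo rather than in LT-HSCs alone. Nfkbia itself had no peak in any library, so the genotype labels could not be checked against it. The 4 other samples of the series, CUT&Tag for IκBα itself, were not analysed here.

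The deposited peaks give each marked stretch with its total signal, which is the coverage summed over its bases, and its maximum signal, neither scaled to library size. Replicates 1 and 2 of each genotype had 75 bp reads and replicate 3 had 50 bp reads. WT replicate 3 stood apart, with 1047 peaks and a median width of 1727 bp, whereas the other 5 libraries had 2325 to 6013 peaks and median widths of 2835 to 3624 bp. Read length and genotype were balanced, but the 50 bp pair holds 1 library of each genotype. The study's reporting notes call the libraries independent, and elsewhere it names fewer experiments than there are libraries of a genotype. The labels do not tie a library to embryos, litters or an experiment, so libraries may share one and part of the spread between them may be technical. The study also lists read numbers, by which both 50 bp libraries were the shallowest and WT replicate 3 the shallower of that pair. The part of depth in the calls of that library was not tested. Results that rest on WT replicate 3 are given with and without it. Throughout, 6 values in a row are those of WT replicates 1, 2 and 3 followed by those of KO replicates 1, 2 and 3.

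Wnt ligands are secreted lipid-modified glycoproteins that bind a Frizzled receptor together with an Lrp5 or Lrp6 co-receptor, and in the canonical branch this stabilises β-catenin, which enters the nucleus and acts with Tcf and Lef factors. Secreted frizzled-related proteins (Sfrp) and Wif1 bind Wnt ligands, Dkk proteins and sclerostin (Sost) act on the co-receptors, and R-spondins (Rspo) enhance the signal through Lgr receptors. H3K27me3 is laid down by the Polycomb repressive complex PRC2, typically over CpG-rich promoters of developmental genes that a cell type keeps silent. In blood formation, Wnt signals are known to act on stem cells in a dose-dependent manner, and much of the ligand is thought to come from surrounding cells. In a library made from many cells, a mark in fewer cells and less of the mark per cell cannot be told apart.

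CpG dinucleotides are the sequence feature most tied to PRC2 targeting, so promoters of marked and unmarked genes are shown with every CG in capitals. Each is a RefSeq promoter of build GRCm38.p6, running from 250 bases before to 50 after the annotated start and written 5′ to 3′ on the strand of the gene. The table of promoters matched 31 of the 44 genes. Wnt11 and Wnt10a were the ligands called in all 6 libraries with the highest median signal rank, and Wnt10a has no entry there. Dact1 is shown as the gene called in all 3 KO and no WT libraries, Dact2 as its relative called in 5 libraries, Fzd10 as the receptor called most often and Fzd7 as a receptor called in none. The windows are, in that order, chr7:98834862-98835161 (plus strand), chr12:71309634-71309933 (plus), chr17:14203782-14204081 (minus), chr5:128600856-128601155 (plus) and chr1:59481897-59482196 (plus).
Wnt11: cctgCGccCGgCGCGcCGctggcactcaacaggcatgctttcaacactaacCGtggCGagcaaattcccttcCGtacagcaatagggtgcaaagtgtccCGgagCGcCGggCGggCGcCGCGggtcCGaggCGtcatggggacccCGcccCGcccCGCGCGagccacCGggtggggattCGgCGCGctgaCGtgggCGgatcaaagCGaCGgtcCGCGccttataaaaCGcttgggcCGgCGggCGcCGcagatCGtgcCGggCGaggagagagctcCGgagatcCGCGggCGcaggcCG
Dact1: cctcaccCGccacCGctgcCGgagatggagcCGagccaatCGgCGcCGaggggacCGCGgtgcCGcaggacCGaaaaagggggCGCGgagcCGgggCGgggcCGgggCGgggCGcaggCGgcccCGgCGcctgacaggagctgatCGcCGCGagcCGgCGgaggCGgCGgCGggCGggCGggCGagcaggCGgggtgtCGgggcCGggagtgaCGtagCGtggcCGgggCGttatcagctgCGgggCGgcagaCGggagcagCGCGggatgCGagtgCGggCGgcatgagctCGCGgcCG
Dact2: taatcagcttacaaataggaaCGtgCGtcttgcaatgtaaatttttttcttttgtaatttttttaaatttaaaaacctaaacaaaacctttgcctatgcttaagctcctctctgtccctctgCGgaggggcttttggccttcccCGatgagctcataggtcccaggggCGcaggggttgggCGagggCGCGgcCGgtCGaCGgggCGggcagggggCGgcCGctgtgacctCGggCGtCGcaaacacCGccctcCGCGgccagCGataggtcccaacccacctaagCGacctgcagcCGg
Fzd10: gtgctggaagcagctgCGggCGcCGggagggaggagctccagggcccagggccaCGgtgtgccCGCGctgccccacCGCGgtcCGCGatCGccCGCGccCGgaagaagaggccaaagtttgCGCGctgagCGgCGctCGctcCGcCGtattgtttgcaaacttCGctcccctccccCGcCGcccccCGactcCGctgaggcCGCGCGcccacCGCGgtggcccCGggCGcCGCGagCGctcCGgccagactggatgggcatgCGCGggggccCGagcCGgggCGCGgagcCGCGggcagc
Fzd7: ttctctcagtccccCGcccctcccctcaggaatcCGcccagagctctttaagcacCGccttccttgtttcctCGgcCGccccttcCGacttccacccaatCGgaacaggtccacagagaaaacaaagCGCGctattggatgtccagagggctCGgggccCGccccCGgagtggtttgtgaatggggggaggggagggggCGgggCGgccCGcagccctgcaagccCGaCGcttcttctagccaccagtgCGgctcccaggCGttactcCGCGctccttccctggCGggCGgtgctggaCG

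The 300 bases of Wnt11 held 45 CG, those of Dact1 held 50, those of Dact2 23, those of Fzd10 45 and those of Fzd7 24, against a median of 7 over 32851 promoters of the table. The table holds a second Wnt11 promoter with 23 CG, and the one printed is the nearer to the main GENCODE start. CG reads the same on both strands, and 43.5% of all promoters in the table had at least 10. Marked Fzd10 and unmarked Fzd7 were thus both above that level, as were both Dact genes. The RefSeq starts of these 5 genes lay 19 to 277 bp from the main GENCODE start of the gene, whereas the peak calls used every annotated start.

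A gene was called marked in a library when a peak overlapped the stretch from 5 kb upstream to 100 bp downstream of any of its annotated transcription start sites (TSS). The ligands were marked far more often than the genome at large. The Frizzled receptors were marked less than the ligands, above the genome share in some libraries and below it in others. The secreted modulators lay between ligands and receptors in 5 libraries and level with the ligands in KO replicate 2. Of the 19 ligands, a promoter peak was called for 17, 17 and 9 in WT and for 19, 16 and 16 in KO. Among all protein-coding genes the share with a promoter peak was 10.6%, 12.9%, 3.46%, 12.9%, 12.2% and 8.06%. The ligand share was 47.4% in WT replicate 3 and 84.2% to 100% in the other 5 libraries, above the genome share in each.

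Of the 10 Frizzled receptors, 1, 4 and 1 were called in WT and 2, 1 and 1 in KO. This is 10% in 4 libraries, 40% in WT replicate 2 and 20% in KO replicate 1. In WT replicate 1 and KO replicate 2 the share was below that of all genes, and in WT replicates 2 and 3 and KO replicates 1 and 3 above it. Of the 13 secreted modulators, 9, 9 and 2 were called in WT and 10, 11 and 5 in KO, with shares of 15.4% to 84.6%. In 5 libraries the order was ligands, then modulators, then receptors, while in KO replicate 2 the modulators, at 84.6%, were level with the ligands at 84.2%. With the gene body included, the ligand counts became 19, 19, 10, 19, 18 and 16, those of the receptors 2, 5, 1, 4, 2 and 3, and those of the modulators 9, 11, 3, 12, 12 and 5, so that the order was ligands, modulators, receptors in each library. Over all protein-coding genes the share with a peak in promoter or body was 4.24% in WT replicate 3, 8.91% in KO replicate 3 and 12.2% to 14.7% in the other 4 libraries. The receptor share by that measure, 10% to 50%, was above it in each library.

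**Figure D1:**
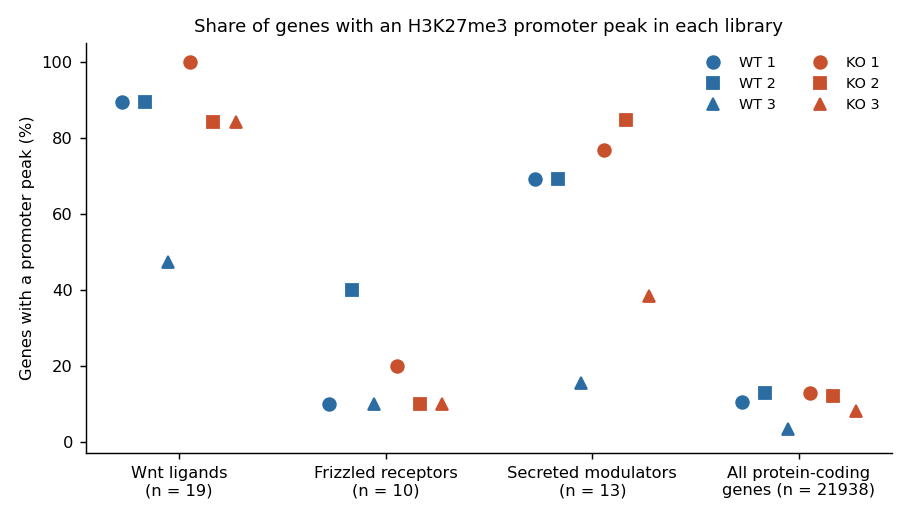
Share of genes with an H3K27me3 promoter peak (percent, y axis) for Wnt ligands, Frizzled receptors, secreted modulators and all protein-coding genes, with 1 point per library (WT blue, KO orange, symbol by replicate). The ligand points sit between 47.4% and 100%, the receptor points between 10% and 40% and those of all genes between 3.46% and 12.9%.

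Over the 44 genes, 28, 31 and 12 were called in WT and 33, 30 and 24 in KO. The mean was 23.7 ± 10.2 (SD, n = 3) in WT and 29 ± 4.58 (SD, n = 3) in KO, a difference smaller than the spread between WT libraries, where the means over all protein-coding genes were 9.03% and 11%. Without WT replicate 3 the WT mean was 29.5 ± 2.12 (SD, n = 2), against a mean of 11.8% over all genes. The direction then turned against the KO mean of 29, which still held the 50 bp KO replicate 3, and the difference stayed within the spread. Without KO replicate 3 as well, the KO mean was 31.5 ± 2.12 (SD, n = 2), against 12.5% over all genes, and the direction did not turn. There were 11 genes called in all 6 libraries, which is 25% against 2.65% of all protein-coding genes, and 38 genes called in at least 1, which is 86.4% against 15.8%. The 6 genes without a promoter peak in any library were all Frizzled receptors. A further 11 genes were called in every library but WT replicate 3, against 3.72% of all genes.

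**Figure D2:**
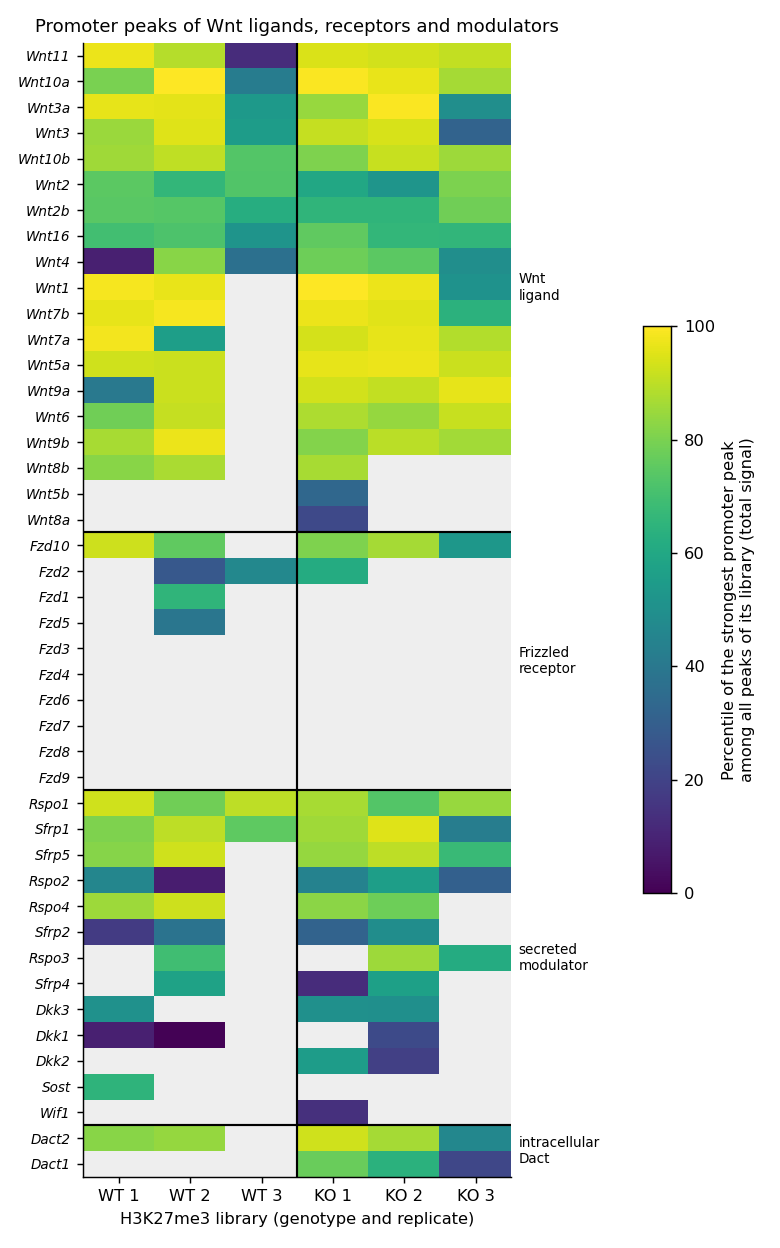
Heat map of the 44 genes (y axis, by role and then by number of libraries called) in the 6 libraries (x axis). Colour gives the percentile of the strongest promoter peak among all peaks of that library by total signal, and grey means that no promoter peak was called, as for Fzd3, Fzd4, Fzd6, Fzd7, Fzd8 and Fzd9 throughout.

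The ligand peaks were also strong within their libraries. Ranked by total signal among all peaks of its own library, the strongest peak of a called ligand had a median percentile of 85.0, 91.1 and 53.9 in WT and 86.8, 92.4 and 82.8 in KO. For all called protein-coding genes the same median was 63.8, 66.9, 54.4, 65.1, 65.3 and 56.6. The ligands thus ranked higher in 5 libraries and level with the other genes in WT replicate 3. Called modulators had medians of 64.9, 69.3 and 82.7 in WT and 52.7, 56.7 and 61.5 in KO, below the ligands in 5 libraries and above them in WT replicate 3, where 2 modulators were called.

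Wnt11, a ligand of the non-canonical branch that guides cell movement, was called in all 6 libraries. The total signal of its strongest promoter peak came to 47858, 33284 and 3535 in WT and 49810, 37515 and 21292 in KO, and its percentile was 88.7 to 96.9 except in WT replicate 3, where it was 12.5. The genotypes overlap, and the low value is that of the library with the fewest peaks. The peaks lay between 98830383 and 98842545 on chromosome 7, over the promoter and 3 of the 7 exons. Spans and exon counts here and at later genes are those touched by a promoter peak in any library.

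Wnt10a, a ligand of tooth and skin development, had its strongest promoter peak at 22501, 120249 and 4074 in WT and at 116330, 46509 and 18724 in KO. WT replicate 2 and KO replicate 1 were the high libraries, at the 99.8 and 99.6 percentile, so both genotypes held a low and a very high value. In WT replicate 2 a single peak of 26140 bp covered Wnt10a and reached into the neighbouring Wnt6. Wnt10b, which favours bone over fat formation, gave 26762, 35513 and 5124 in WT and 28212, 34403 and 18090 in KO, with 4 of its 5 exons under the peaks. Its percentile was 73.4 or above in every library, and the genotypes overlap.

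Wnt3 and Wnt3a, canonical ligands needed for gastrulation and for the outgrowth of the body axis, were both in the set called in all 6 libraries. At Wnt3 the strongest peak had a total signal of 26225, 47715 and 4461 in WT and 40515, 38487 and 8738 in KO. Wnt3a had 44607, 50200 and 4419 in WT and 31429, 70975 and 10324 in KO. In both genes replicate 3 was the lowest library of each genotype, and the genotypes overlap. For Wnt3a the maximum of the signal lay upstream of the TSS in all 6 libraries, at positions from -3014 to -1480 bp in 5 of them and at -3101 bp in KO replicate 3.

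Wnt2, Wnt2b, Wnt4 and Wnt16 completed the 9 ligands called in every library, and their peaks were weaker. Wnt2, a ligand of lung and placental development, had total signals of 19998, 17323 and 5084 in WT and 17177, 13061 and 16031 in KO. Wnt2b, close to it in sequence, had 19872, 20582 and 4688 in WT and 19469, 16617 and 15569 in KO. At both genes KO replicate 3 ranked higher within its library than the other KO libraries did, at percentiles of 80.1 and 78.5.

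Wnt16, known for its part in the specification of blood stem cells in fish and in bone, gave 17865, 19800 and 4344 in WT and 24677, 16974 and 12727 in KO. Its percentile ran from 51.7 to 75.4. Wnt4, a ligand of kidney and gonad development, ranged more widely, with 7271, 26606 and 3968 in WT and 26438, 20174 and 10307 in KO. There, WT replicate 1 was low although it had 4160 peaks in all, with a percentile of 8.83. The genotypes overlapped at both genes.

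The 7 further ligands called in all libraries but WT replicate 3 had some of the strongest peaks. Wnt1, the canonical ligand of midbrain formation, had total signals of 62051 and 54359 in WT replicates 1 and 2 and of 126393, 47459 and 10478 in KO. The KO replicate 1 peak was 22950 bp wide and also reached the promoter of the neighbouring gene Ddn. WT replicate 3 had a peak 0.202 kb from the Wnt1 TSS, inside the gene and outside the promoter window.

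Wnt5a, the main ligand of planar polarity and known to act on hematopoietic stem cells, had 35158 and 38891 in WT and 59052, 47710 and 22334 in KO. Its percentile lay between 92.1 and 96.9 in all 5 libraries, the tightest range of any ligand called in 5 or more. Wnt7a gave 58392 and 14273 in WT and 46135, 44698 and 19640 in KO, and Wnt7b gave 45832 and 69751 in WT and 63293, 42567 and 12500 in KO. These relatives, known from limb patterning and from lung and brain vessel growth, had no peak in WT replicate 3 within 125 kb and 2590 kb of the TSS, respectively.

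Wnt6, an epithelial ligand, had 21783 and 37030 in WT and 34983, 26015 and 21836 in KO. Wnt9a, a ligand of joint formation, had 10560 and 38957 in WT and 45079, 32919 and 27470 in KO. Wnt9b, which induces the kidney tubules, had 27640 and 57215 in WT and 28828, 31291 and 18434 in KO. WT replicate 1 was the lowest library at Wnt9a and KO replicate 3 at Wnt9b, and at each of the 3 genes the genotypes overlap.

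The remaining ligands were Wnt5b, Wnt8a and Wnt8b. Wnt5b and Wnt8a were called in KO replicate 1 alone, at percentiles of 33.3 and 22.2, and WT replicates 1 and 2 had a peak in the body of either gene without a promoter peak, as KO replicate 2 had for Wnt8a. Wnt8b, a forebrain ligand, was called in WT replicates 1 and 2 and KO replicate 1 with total signals of 24335, 31563 and 34128. These peaks did not cover the main TSS, since they lay over 5 of the 6 exons near the 3′ end, where a further TSS is annotated. Wnt8b therefore counts as marked by its second annotated start and not by its main promoter.

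Of the ligands, 8 lie in the genome as linked pairs, which descend from old duplications. Wnt6 and Wnt10a share a strand on chromosome 1 with 6193 bp between them, and peaks covered 59.3%, 79.1% and 5.05% of the span of both genes in WT and 72.5%, 54.4% and 42.1% in KO. Wnt1 and Wnt10b point away from each other on chromosome 15 across 11706 bp, with 52.0%, 50.7% and 24.6% covered in WT and 55.6%, 58.1% and 41.9% in KO. Cover in these compact pairs thus exceeded 40% in every library but WT replicate 3.

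The longer pairs on chromosome 11 were covered less. Wnt3 and Wnt9b, 24328 bp apart, had 26.3%, 48.0% and 4.36% covered in WT and 33.6%, 44.8% and 13.8% in KO. Wnt3a and Wnt9a, 16175 bp apart, had 28.1%, 47.3% and 3.78% covered in WT and 37.7%, 53.3% and 12.9% in KO. In all 4 pairs replicate 3 was the lowest library of its genotype. The mark stayed in separate blocks, for the WT replicate 2 peak over Wnt6 and Wnt10a was the sole peak to touch both genes of a pair, and no other protein-coding gene lies within any of the 4 spans.

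Among the receptors, Fzd10 stood out. It was called in all libraries but WT replicate 3, with total signals of 34203 and 21751 in WT and 28209, 28265 and 10727 in KO, so that the genotypes overlap. Over the 5 libraries its peaks lay between 128592177 and 128604780 on chromosome 5. The strongest peak covered the whole of this single-exon gene in KO replicates 1 and 2 and ended inside it in the other 3 libraries. In WT replicate 3 the nearest peak was 1360 kb away.

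The other Frizzled genes had few and weak promoter peaks. Fzd2 was called in WT replicates 2 and 3 and KO replicate 1, with total signals of 8921, 4198 and 17688. Fzd1 and Fzd5 were called in WT replicate 2 alone, at percentiles of 65.5 and 39.2. Fzd1 also had a peak inside its single exon in all 3 KO libraries, starting 0.511 to 1.79 kb downstream of the TSS, so that with the gene body it was called in 3 KO and 1 WT libraries. Fzd2 likewise had such a peak in WT replicate 1 and KO replicate 3, 0.488 and 0.305 kb from the TSS.

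Fzd3, Fzd4, Fzd6, Fzd7, Fzd8 and Fzd9 had no promoter peak in any library, as did 84.2% of all protein-coding genes. Fzd3 had a peak in the gene body in KO replicate 1 and Fzd8 in WT replicate 2, a peak in the body without any at the promoter being found at 1.72% of all genes. For the other 4, which like 82.5% of all genes had none in promoter or body, the nearest peak of any library lay at least 111 kb away for Fzd4, 66.7 kb for Fzd6, 1710 kb for Fzd7 and 116 kb for Fzd9. Fzd4 and Fzd6, receptors for norrin and for polarity signals, and Fzd7, the receptor most used by embryonic stem cells, were thus far from any called stretch. A stretch that fell under the peak threshold is not in the files, since the weakest peaks in the libraries had total signals of 3344 to 7307, so absence of a peak does not show absence of the mark.

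Among the secreted modulators, Sfrp1 and Rspo1 were called in all 6 libraries. Sfrp1, a Wnt-binding inhibitor, had total signals of 23356, 34881 and 5213 in WT and 32873, 41899 and 9635 in KO. Rspo1, an enhancer of Wnt signalling in ovary and gut, had 34587, 23590 and 6789 in WT and 34446, 19501 and 17615 in KO. Rspo1 kept a percentile of 73.3 or above in each library, WT replicate 3 included, where it was 90.0. At both genes the genotypes overlap, and at Rspo1 the promoter peaks touched 5 of the 6 exons.

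Sfrp5 and Rspo2 were called in every library but WT replicate 3. Sfrp5, an inhibitor secreted in endoderm and fat, gave 24007 and 40273 in WT and 30973, 31881 and 13130 in KO. Rspo2, which acts in limb and lung, gave 11488 and 7252 in WT and 12383, 13968 and 8640 in KO and stayed at or below the 56.1 percentile. The Sfrp5 peaks were the stronger ones in each of these libraries.

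The other 9 modulators were called in 1 to 4 libraries each. Rspo4 and Sfrp2 were called in the 4 libraries with 75 bp reads, at percentiles of 77.9 to 92.3 and of 17.3 to 49.1. Rspo3 was called in WT replicate 2 and KO replicates 2 and 3, and Sfrp4 in WT replicate 2 and KO replicates 1 and 2, where the peak also touched the promoter of Epdr1. Dkk1, Dkk2 and Dkk3, of which Dkk1 is the classical inhibitor of Lrp5 and Lrp6, were called in 3, 2 and 3 libraries, with no percentile above 55.3. Wif1 was called in KO replicate 1 and Sost in WT replicate 1, although Sost had a peak in its body in 5 libraries. The modulators were thus marked often but unevenly, with most of their calls in libraries of 75 bp reads. All protein-coding genes were likewise called more often there, at 10.6% to 12.9%, against 3.46% and 8.06% in the 50 bp libraries.

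Dact1 and Dact2 encode scaffold proteins that bind Dishevelled inside the cell and can dampen or redirect the Wnt signal. Dact1 was the sole member of the set called in all 3 KO and in no WT libraries, a pattern found in 0.0866% of all protein-coding genes, or 19 genes. The opposite pattern held 0 of the 44 genes and 0.00912% of all. Its peak had total signals of 25668, 16168 and 7930 in KO replicates 1, 2 and 3, at the 77.0, 63.9 and 21.4 percentile, and covered the promoter and 2 of 4 exons. In the WT libraries the nearest peak was 963, 759 and 962 kb from the TSS. WT replicate 3 bears little weight here, but WT replicates 1 and 2 had 4160 and 6013 peaks and reached down to total signals of 6616 and 6812, below that of each KO peak at Dact1, all unscaled. When each library was limited to its 1047 strongest peaks, Dact1 was called in none of the 6. Signal at an uncalled stretch is not in the files, so the size of the difference at Dact1 was not measured and its calls are given as a description.

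Dact2, in contrast, was called in both genotypes, with 24257 and 28061 in WT and 43476, 28244 and 10049 in KO. WT replicate 3 had a peak 0.308 kb from the TSS, inside the gene. The KO values enclose those of WT, and the promoter peaks covered the first of 4 exons.

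The peaks were centred close to the TSS and, at ligands, spread into the gene. A peak covered the main TSS, the start of the best-ranked transcript, of 68.4%, 78.9% and 26.3% of ligands in WT and of 94.7%, 84.2% and 68.4% in KO. For all protein-coding genes the shares were 8.05%, 9.86%, 2.32%, 10.1%, 9.32% and 6.46%. At 5 kb downstream the ligand share was still 47.4%, 47.4% and 0% in WT and 42.1%, 42.1% and 15.8% in KO, while for modulators it was 7.69%, 15.4%, 0%, 23.1%, 0% and 0% and for all genes at most 3.39%. At 5 kb upstream it had dropped to between 0% and 26.3% for ligands. The summed width of the promoter peaks of a called ligand had a median of 6540, 7780 and 1690 bp in WT and 7430, 8630 and 3860 bp in KO, and that of a called modulator 4130, 4860 and 1990 bp in WT and 3000, 3730 and 3390 bp in KO. Ligands thus carried the wider stretches in every library but WT replicate 3.

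Over all libraries and genes there were 158 calls, and in 114 of them (72.2%) the maximum of the strongest peak lay within 2 kb of the main TSS. It lay downstream of the TSS in 57.4% of ligand calls and in 80.4% of modulator calls. Some genes were counted in up to 6 libraries, so these calls are not independent. A call also required a peak over the promoter window, so closeness to a TSS is in part set by that rule. The same shares were not computed for all called protein-coding genes.

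**Figure D3:**
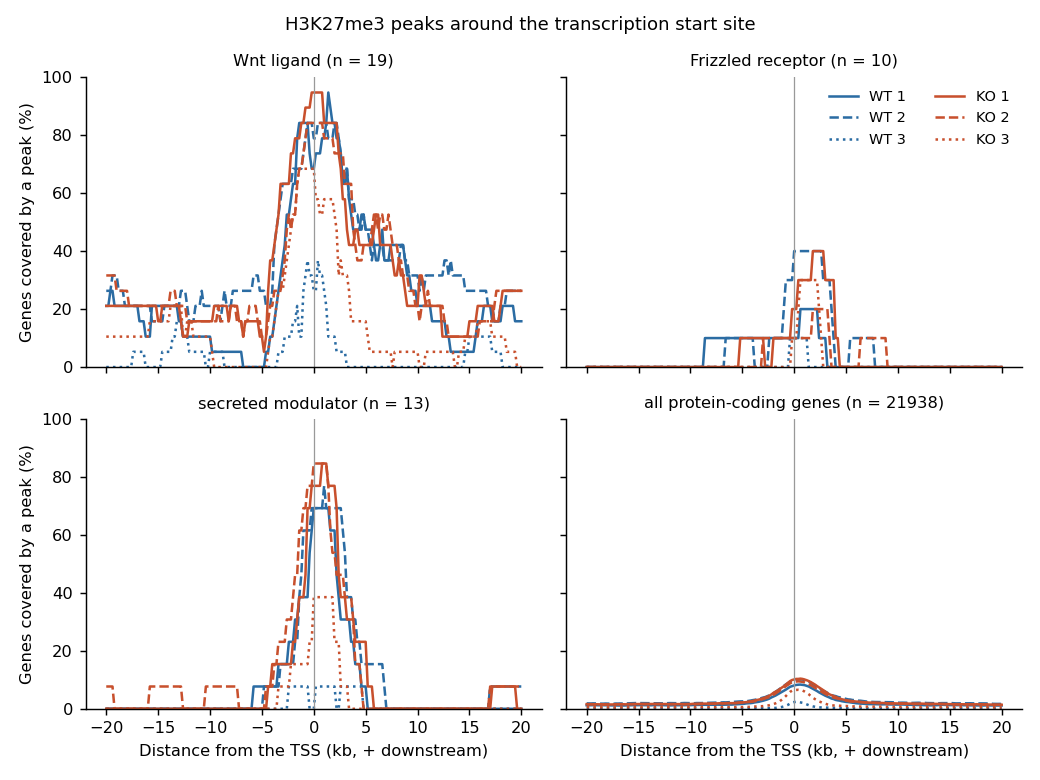
Share of genes covered by a peak (percent, y axis) at each distance from the main TSS (kb, x axis, positive downstream) for ligands, receptors, modulators and all protein-coding genes, 1 line per library (WT blue, KO orange, line style by replicate). The ligand lines reach 94.7% at the TSS in KO replicate 1 and stay above those of all genes at 5 kb downstream in every library but WT replicate 3.

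CpG content was measured at marked and unmarked Wnt genes alike. In the 1 kb centred on the main TSS, CpG-rich was taken to mean an observed over expected CpG ratio above 0.6 with a GC share above 55%. All 10 Frizzled genes were CpG-rich, with a median ratio of 0.827, against 14 of 19 ligands with a median of 0.731 and 7 of 13 modulators with 0.638. Of all protein-coding genes 40.1% were CpG-rich, and of those 14.8%, 17.4%, 5.8%, 17.9%, 16.8% and 13% had a promoter peak. CpG-rich ligands were called at 92.9%, 92.9%, 50.0%, 100%, 92.9% and 92.9%, and CpG-rich receptors at 10%, 40%, 10%, 20%, 10% and 10%, so the gap between these classes was there among genes of like CpG class. Of the CpG-rich ligands 50.0% were called in all 6 libraries, against 4.52% of CpG-rich genes, and of the receptors 40% in at least 1, against 20.9%.

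The 6 uncalled receptors had a median ratio of 0.854, and the 11 genes called in all libraries 0.749. Fzd3 and Fzd9 reached 1.03 and 0.923 without a call, whereas Wnt10a and Wnt16, at 0.395 and 0.349, were called in each library. The calls used every annotated start and the ratio the main TSS alone, which a peak covered in 3 libraries at Wnt10a and in 6 at Wnt16. Wnt5b, with the highest ratio of any ligand at 1.01, was called in 1 library. Among modulators all 4 genes called in 5 or 6 libraries were CpG-rich, while the other 3 CpG-rich genes, Sfrp2, Rspo3 and Wif1, were called in 4, 3 and 1 and the 6 that were not CpG-rich in 1 to 4.

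**Figure D4:**
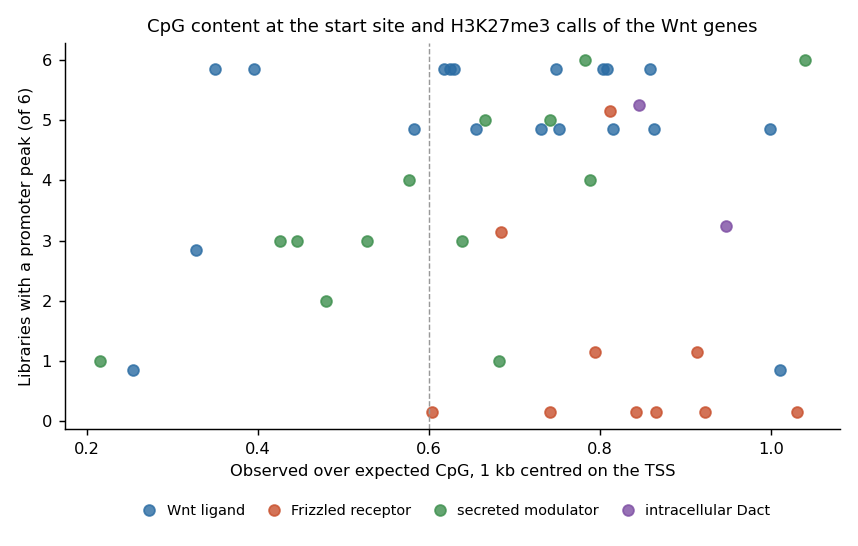
Number of libraries with a promoter peak (y axis, of 6, points shifted slightly by role) against observed over expected CpG in the 1 kb centred on the main TSS (x axis), 1 point per gene coloured by role, with a dashed line at 0.6. The 10 Frizzled points all lie right of the line, 6 of them at 0 libraries, while Wnt16 at 0.349 and Wnt10a at 0.395 lie left of it at 6. Calls used every annotated start, and at Wnt10a a peak covered the main TSS in 3 libraries.

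The comparison of the genotypes asks whether loss of IκBα, which binds PRC2 in the study's account, alters H3K27me3 at these genes. Counts of calls differed mainly through WT replicate 3. In WT, 11 genes were called in all 3 libraries, against 3.01% of all protein-coding genes, and in KO 23 were, against 7.12%. There were 12 genes called in all 3 KO and not all 3 WT libraries, against 4.48% of all genes, and 0 of the reverse pattern, against 0.36%. Without WT replicate 3, 26 genes were called in both remaining WT libraries, against 9.74% of all genes, and the 12 fell to Dact1 alone, a pattern then held by 0.757% of all genes. The reverse pattern then held 4 genes, against 3.37% of all, namely Wnt8b, Sfrp2, Dkk1 and Rspo4, all of them uncalled in KO replicate 3.

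Within the 4 libraries of 75 bp reads, 26 genes were called in both WT and 28 in both KO libraries, against 9.74% and 10.7% of all genes, and 24 in all 4, or 54.5% against 8.53% of all genes. Dact1, Dkk2, Dkk3 and Sfrp4 were called in both KO and not both WT libraries (2.22% of all genes), and Wnt8b and Dkk1 the other way round (1.21%). Of these 6, Dact1 and Dkk2 were called in no WT library of 75 bp reads, a pattern seen at 0.47% of all genes, and the others were called in at least 1 library of each genotype. Pair by pair, 7 genes were called in KO replicate 1 and not WT replicate 1 (3.07% of all genes) and 2 the reverse (0.807%), while 3 were called in KO replicate 2 and not WT replicate 2 (1.69%) and 4 the reverse (2.43%). In the 50 bp pair 12 genes were called in WT and 24 in KO, against 3.46% and 8.06% of all genes, and the libraries had 1047 and 2325 peaks.

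Signal was compared where it was measured in every library. Peaks of the 6 libraries that overlap were merged into regions, and 717 regions had a peak in each. The log2 of summed total signal, centred on each library's median, was tested with limma. At an adjusted p of 0.05 no region passed, and 8 regions (1.12%) had an unadjusted p under 0.05. Of these 717, 13 regions lay over promoters of the set, with Wnt6 and Wnt10a sharing a region, and 0 of the 13 had an unadjusted p under 0.05. In KO 4 were higher and 9 lower, against 47.7% higher among all regions. With signal scaled to the total of each library instead, 1 was higher and 12 lower, and 23.7% of all regions were higher, the median difference over all regions being -0.26 on the log2 scale under that scaling and -0.02 with centring on the median.

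By total signal, the widest differences were at 3 ligands. The Wnt3a region had summed signals of 44607, 58021 and 8664 in WT and 39605, 70975 and 10324 in KO, a centred log2 difference (KO minus WT) of -0.55 ± 0.45 (SE, limma adjusted p = 0.992). In the Wnt10b region they were 26762, 35513 and 12132 in WT and 28212, 34403 and 18090 in KO, with a difference of -0.48 ± 0.42 (SE). At Wnt11 they were 47858, 33284 and 3535 in WT and 49810, 47382 and 21292 in KO, with a difference of 0.37 ± 0.38 (SE). In each case the unscaled values of the genotypes overlap, and the difference was of the size of its standard error. These differences moved with single libraries. With each library left out in turn, Wnt3a ranged from -0.98 ± 0.40 (SE) without KO replicate 2, where the unadjusted p was 0.0358 and the adjusted p 0.992 in limma, to -0.09 ± 0.41 without KO replicate 3. Wnt10b ranged from -0.70 ± 0.46 without WT replicate 1 to -0.01 ± 0.33 without WT replicate 3, and Wnt11 from 0.12 ± 0.35 without WT replicate 3 to 0.74 ± 0.37 without WT replicate 1. In the 4 libraries of 75 bp reads the differences at Wnt3a, Wnt10b and Wnt11 were -0.05 ± 0.41, -0.10 ± 0.33 and 0.17 ± 0.39 (SE). By mean signal per covered base, 27 (3.77%) of all regions had an unadjusted p under 0.05 in limma. The 3 over these genes were those of Wnt4 at 0.41 ± 0.16, Wnt3a at -0.38 ± 0.16 and Wnt11 at 0.38 ± 0.18 (SE). Their unadjusted p-values were 0.0229, 0.0306 and 0.0465, with an adjusted p of 0.985 for each in limma. Wnt4 had the opposite sign by total signal, at -0.10 ± 0.31 (SE). By maximum signal 12 (1.67%) of all regions were under that level. The only one over these genes was that of Rspo1 at -0.51 ± 0.22 (SE), against -0.31 ± 0.38 by total signal. Its unadjusted p by maximum signal was 0.0351 and its adjusted p 0.996 in limma.

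The 75 bp libraries allowed more of the genes to be compared, with 27 such regions among 2557. There 11 were higher and 16 lower in KO, against 49% higher among all regions. In limma 0 of the 27 and 119 (4.65%) of all regions had an unadjusted p under 0.05, and no region passed after adjustment. Rspo4 at -0.46 ± 0.32 and Wnt2 at -0.43 ± 0.35 (SE) were the lowest, and Dact2 at 0.31 ± 0.33 and Sfrp1 at 0.27 ± 0.34 (SE) the highest. Fzd10 differed by -0.15 ± 0.33 (SE). The standard errors of 0.31 to 0.43 limit what size of difference was detectable at these genes.

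**Figure D5:**
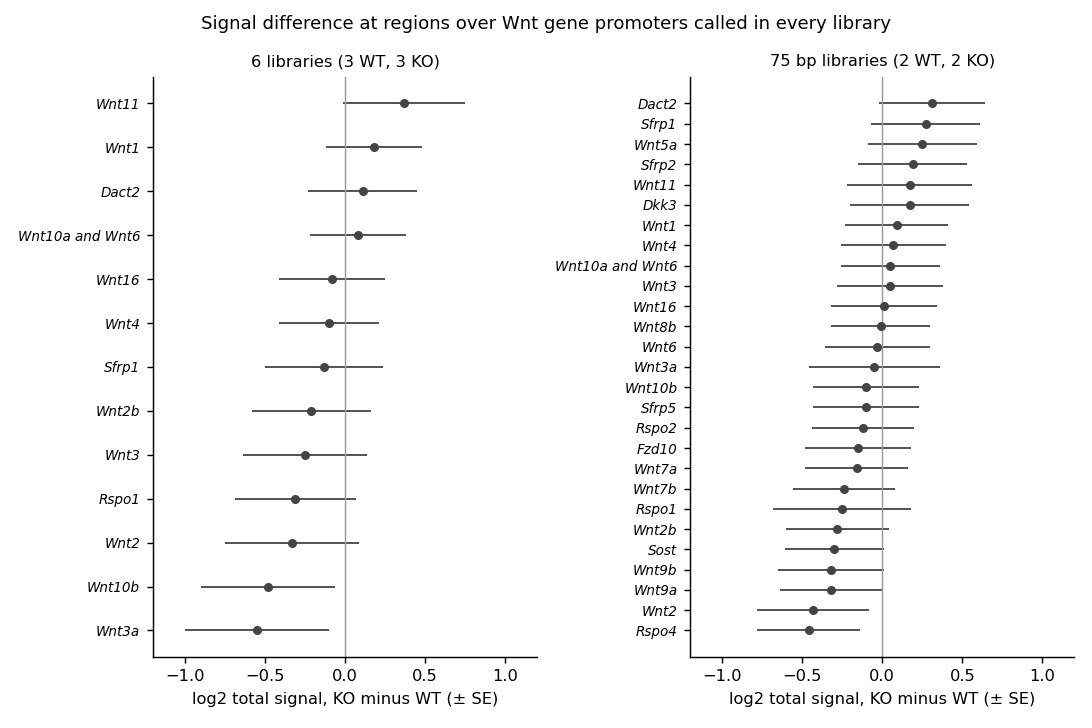
Difference in log2 total signal between KO and WT (x axis, points with SE bars) at regions over promoters of the Wnt genes (y axis), for the 13 regions present in all 6 libraries (left) and the 27 present in the 4 libraries of 75 bp reads (right). Most bars cross 0, with Wnt3a at -0.55 ± 0.45 the lowest on the left and Rspo4 at -0.46 ± 0.32 the lowest on the right.

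The rest of the Wnt pathway was marked less than the ligands. Of 54 other genes, covering co-receptors and their turnover, further secreted factors, cytoplasmic and nuclear components and planar polarity, 16, 20 and 5 had a promoter peak in WT and 19, 20 and 12 in KO. These are shares of 29.6%, 37.0%, 9.26%, 35.2%, 37.0% and 22.2%, below those of the ligands and above those of all protein-coding genes in each library. In at least 1 library 23 were called, or 42.6% against 15.8% of all genes, and in all 6 libraries 7.41% were, against 2.65%. The 4 genes called in all 6 were Lgr5, a receptor for R-spondins, Notum, which removes the lipid from Wnt ligands, Axin2, a scaffold of β-catenin breakdown and itself a Wnt target, and Pygo1, a nuclear partner of β-catenin. Axin2 stayed at percentiles of 31.0 to 54.3, and Notum at 76.6 to 83.9 in the 75 bp libraries. Calls in at least 1 library were made for 6 of 13 genes of co-receptors and receptor turnover, 4 of 10 further secreted factors, 4 of 14 cytoplasmic components, 5 of 10 nuclear components and 4 of 7 genes of planar polarity. None of the 54 was called in all libraries of one genotype and none of the other.

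The sorted cell type was checked by its marker genes, which should lack the mark where they are active. Of 14 LT-HSC markers, among them Kit, Procr, Mecom and Hlf, 0 had a promoter peak in any library, and likewise 0 of 3 genes active in all cells. Since 84.2% of all protein-coding genes had none either, these counts say little about the cell type. Of markers of other fetal liver cells, 0 of 5 for hepatocytes, 1 of 4 for endothelium (Kdr, in WT replicate 2) and 2 of 4 for stroma (Pdgfra in all 6 libraries and Col1a1 in 4) were called. Since silent genes need not carry H3K27me3, an absent peak at a hepatocyte marker does not bear on purity.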

How the data were processed

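Peaks of 6 H3K27me3 CUT&Tag libraries were deposited with total and maximum signal (summed and highest coverage). Per the methods and the labels, the authors trimmed reads with Trim Galore 0.6.6, aligned them with Bowtie2 2.4.4 to GRCm38, discarded duplicates, multi-mapped reads and those with a mapping quality under 20, and ran SEACR 1.3 on each library (stringent, top 0.5% of blocks, no IgG control). File names state a blacklist filter, whose list is not given in the sources used here. Sequencing depth is not in the peak files, and signal is not scaled to it, so no counting interval was computed. Read numbers listed by the study entered no computation. A fixed share of blocks was kept per library, which sets the number of peaks together with depth.

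Groups and replicate numbers came from the sample labels. Genes were those of GENCODE M21 (GRCm38). The genes and lists were chosen with earlier results of these data known. All 44 genes are accounted for, and values in every library are given for genes called in all 6 libraries or in all 3 of one genotype and not all 3 of the other, and for linked ligand pairs. Other pathway genes are named when called in all 6, or in all 3 of one genotype and none of the other. The rule for printed promoters took the 2 genes with the most calls and highest median rank, Wnt11 and Wnt10a, the gene with the most one-sided calls, and relatives, and Wnt10a has no entry in the promoter table. Overlap of at least 1 bp counted. Counts over the genes carry no test. Region signal was tested with limma 3.58.1 (R 4.3.3, Benjamini-Hochberg adjustment, threshold 0.05), checked on simulated data. Deviations of same-numbered WT and KO libraries from their group means correlated at 0.27, 0.31 and 0.47 over 717 regions, so a fit with the replicate number as a block was also run. Alternatives were other windows and overlaps, an equal number of peaks per library, 75 bp libraries only, other scalings and measures, and leaving out each library.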

Additional observations from a re-analysis of the deposited data

How the results depend on the processing

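With the 1047 strongest peaks of each library, 6 genes were called in all 3 WT (1.26% of all genes) and 10 in all 3 KO libraries (1.92%), 7 in KO and not WT (1.15%) and 3 the reverse (0.488%). The KO mean was 17 (4.14% of all genes), and ligands were the most marked of the ligand, receptor and modulator classes in each library (9 to 13 of 19). With peaks above each library's median the KO mean was 23.3 (7.07%) and the reverse pattern held 3 genes (0.447%). It held 2 with a window of 1 kb either side of the TSS (0.378%) and 2 with the gene body included (0.374%). In the 75 bp libraries 26 genes were called in WT (9.74%), 4 in KO and not WT (2.22%) and 2 the reverse (1.21%), and with a call taken as at least 2 of 3 libraries these were 27, 5 and 3 (10%, 2.32% and 0.889%). Leaving out each library gave 11 to 26 genes in all WT libraries, 23 to 28 in all KO libraries, 1 to 17 in KO and not WT and 0 to 4 the reverse, where the shares of all genes were 3.01% to 9.74%, 7.12% to 10.7%, 0.757% to 7.86% and 0.123% to 3.37%, and WT replicate 3 set the 26, the 1 and the 4. The mean number of genes per library, for which leaving out libraries was chosen after seeing the data, was 20 to 29.5 in WT and 27 to 31.5 in KO. The mean shares of all genes were then 7.07% to 11.8% and 10.1% to 12.5%, and the 29.5 was without WT replicate 3. No region passed limma's threshold in any setting. Of the regions over these genes, 1 of 13 was higher in KO with scaling by total signal, against 23.7% of all regions. By maximum signal 2 of 13 were, against 51.9%. Among regions called in at least 3 libraries 21 of 35 were, against 57.4%. Uncalled ones were there set to the lowest total of the library, so that a region called in one genotype alone had to differ. In 75 bp libraries 11 of 27 were higher, against 49%. With each library left out 3 to 9 were, against 42.9% to 51.6%, the 9 of 22 being without WT replicate 3. At an unadjusted p under 0.05 there were 3 regions over these genes by mean signal per covered base, against 3.77% of all regions. There was 1 each by maximum signal and without KO replicate 2, against 1.67% and 0.816%. That of Dact1 among regions in at least 3 libraries is no test, since it entered by its KO calls with all WT values set. With the replicate block, for which same-numbered libraries were paired, 0 regions passed and 25 had an unadjusted p under 0.05, none of them over these genes, and 4 of 13 were higher in KO, so it changed no call. Peak files limit these results to stretches above each library's threshold.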
